A study of Homo sapiens with 6 samples.

Results

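The genes for cyclins A, B, D, E and F that drive the cell division cycle were examined in ARPE-19 cells depleted of EIF1. The 9 genes examined (CCNA2, CCNB1, CCNB2, CCND1, CCND2, CCND3, CCNE1, CCNE2 and CCNF) were taken by symbol from the 30618 genes with counts. CCNA1 and CCNB3, also of the A and B types, were placed among the other cyclins. ARPE-19 is an established line of human retinal pigment epithelium, and EIF1 is the translation initiation factor that helps the ribosome choose the start codon. Every library came from cells kept in 50 mM glucose as a model of hyperglycemia. NC libraries (n = 3) carried a non-targeting control siRNA and siEIF1 libraries (n = 3) carried an siRNA against EIF1. The study's methods give 1 sequence for each siRNA, and no library in normal glucose or with an osmotic control was used here, so the comparison concerns EIF1 depletion within high glucose. Of the 9 cyclins, the 8 with enough reads for a test were all lower in siEIF1 than in NC, and CCND2 was almost unread in both groups.

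Cyclins are the regulatory subunits of the cyclin-dependent kinases (CDKs), and most are made and destroyed once in each cell cycle. D-type cyclins answer to growth signals and open G1 with CDK4 and CDK6, and E-type cyclins act with CDK2 as cells enter S phase. Cyclin A works with CDK2 and CDK1 through S phase and G2, the B-type cyclins carry CDK1 into mitosis, and cyclin F binds no kinase but selects proteins for ubiquitination. In the intact retina, the pigment epithelium rarely divides, whereas ARPE-19 cells proliferate in culture.

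The late cyclin genes are known to share promoter elements, and the promoters of CCNA2, CCNB1, CCNB2 and CCNF are shown for that reason. Their direction of change does not set these 4 apart, since all 8 tested cyclins were lower. CCNE1 and CCND3 also had windows, which are described but not printed. RefSeq promoter windows (GRCh38.p14, 250 bases before the start) were found for 6 of the 9 cyclins. CCND1, CCND2 and CCNE2 were not among them. Each sequence below runs 5′ to 3′ on the strand of its gene and ends before the start given by RefSeq or GENCODE, whichever lies upstream. Capitals mark CCAAT boxes, which read ATTGG where the box lies on the other strand. They also mark forms of the cell cycle genes homology region (CHR) on either strand, here TTTGAA, the form TTCGAA, the form CTTGAA and the form TTTAAA. The windows are, in order, chr4:121823884-121824133 (reverse strand, 250 bases), chr5:69166900-69167134 (forward strand, 235 bases), chr15:59104896-59105125 (forward strand, 230 bases) and chr16:2429197-2429393 (forward strand, 197 bases).
CCNA2: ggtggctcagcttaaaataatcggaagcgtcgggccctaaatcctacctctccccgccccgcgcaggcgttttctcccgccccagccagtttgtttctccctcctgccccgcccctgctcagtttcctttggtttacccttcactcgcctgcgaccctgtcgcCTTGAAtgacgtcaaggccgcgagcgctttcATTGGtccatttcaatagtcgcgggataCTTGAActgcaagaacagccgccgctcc
CCNB1: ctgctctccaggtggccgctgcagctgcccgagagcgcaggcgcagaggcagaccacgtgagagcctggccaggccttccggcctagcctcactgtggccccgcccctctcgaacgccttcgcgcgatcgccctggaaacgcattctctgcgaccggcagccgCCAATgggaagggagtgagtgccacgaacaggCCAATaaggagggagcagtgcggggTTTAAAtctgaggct
CCNB2: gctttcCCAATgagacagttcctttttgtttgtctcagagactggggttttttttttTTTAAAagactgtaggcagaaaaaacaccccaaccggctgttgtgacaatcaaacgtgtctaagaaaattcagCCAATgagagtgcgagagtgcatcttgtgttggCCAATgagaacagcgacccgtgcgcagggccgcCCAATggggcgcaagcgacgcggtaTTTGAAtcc
CCNF: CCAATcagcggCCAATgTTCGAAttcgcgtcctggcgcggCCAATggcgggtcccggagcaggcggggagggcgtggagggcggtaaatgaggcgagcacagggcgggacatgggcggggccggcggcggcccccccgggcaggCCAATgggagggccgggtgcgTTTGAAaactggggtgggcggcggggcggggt

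CCNB2 held 4 CCAAT boxes and 2 CHR forms, and CCNF likewise held 4 and 2. CCNB1 held 2 CCAAT boxes and 1 CHR form, whereas CCNA2 held 1 CCAAT box and 2 CHR forms. In CCNA2, CCNB1 and CCNB2 a CHR form lay within 30 bases of the RefSeq start, with a CCAAT box just upstream of it. In CCNF the nearest CHR form began at -85 from that start, with a CCAAT box at -106. The share of all windows with a CHR form this near the start was not counted. The CCAAT boxes of CCNB1 began at -87 and -55 from the RefSeq start, and those of CCNB2 at -244, -120, -87 and -54. CCNE1 held 1 CHR form, which began at -28 from the RefSeq start, and no CCAAT box. The 3 windows of CCND3 together held 2 CCAAT boxes and no CHR form. Over all 35116 RefSeq windows, 32.0% held a CCAAT box, 9.53% held at least 2, 29.1% held a CHR form and 2.84% held at least 2 CCAAT boxes with a CHR form. E2F sites written as TTTCCCGC, TTTGGCGC, TTTCGCGC or TTTGCCGC were matched in none of the cyclin windows, against 2.79% of all windows. With a share this low, 8 cyclin windows are too few for the lack of a match to be informative. Sites with other letters were not searched, so E2F sites may still be present. The matches describe letters in these windows, and binding was not measured.

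**Figure D1:**
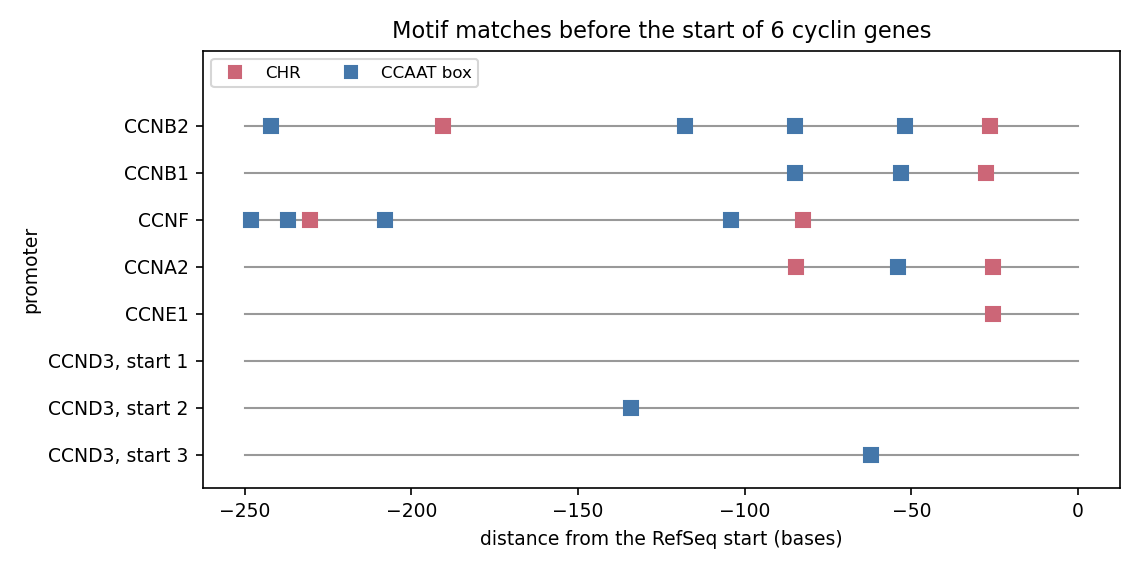
Positions of motif matches (squares) in the 250 bases before the RefSeq start of 6 cyclin genes, with distance from the start in bases on the horizontal axis and 1 line for each window. CCNB2 and CCNF hold 6 matches each, and the first window of CCND3 holds none.

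The 6 libraries held between 26499929 and 31431479 counts. EIF1 itself fell from a mean of 285.6 to 23.5 FPKM (mapped fragments scaled by transcript length and by library size), with a log2 fold change of -3.58 ± 0.055 (SE) and an adjusted p of 1.08e-13. All fold changes are siEIF1 minus NC as fitted by edgeR, and each adjusted p is that of its quasi-likelihood test after Benjamini-Hochberg correction over the 16749 genes tested. Of 14 pigment epithelium markers, 12 had values, while RPE65 and TTR had none. The summed level of the 12 was 522.8 to 541.7 FPKM in NC and 565.6 to 611.6 FPKM in siEIF1. The keratins KRT8 and KRT18 made up most of that sum, and the pigment enzymes TYR, TYRP1 and DCT had mean counts of at most 7.67 in either group. LRAT and PMEL had mean levels of at most 0.27 FPKM in either group. RLBP1, KRT8 and KRT18 rose (log2 fold changes of 1.55, 0.24 and 0.25), and none of the 9 markers tested passed as lower. Over all tested genes, 10.2% were higher and 10.4% lower. RLBP1 was weakly expressed, with means of 14.67 counts in NC and 46.67 in siEIF1. BEST1, a chloride channel of this epithelium, had means of 65.97 and 51.96 FPKM, with a log2 fold change of -0.32 and an adjusted p of 0.106. Whether reads of an overlapping gene were counted for BEST1 was not tested. Of 10 markers of other cell types, 8 had values. Those other than PDGFRB summed to at most 0.11 FPKM in any library, while PDGFRB, a growth factor receptor of pericytes and mesenchymal cells, rose from a mean of 8.15 to 12.2 FPKM with an adjusted p of 0.00176. The part of these differences in the cyclin results was not tested.

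All 8 tested cyclins were lower at an adjusted p under 0.05, and 0 were higher, also at an unadjusted p under 0.05 and by DESeq2. Over all tested genes, 10.4% were lower and 10.2% higher by the same rule. The median log2 fold change of the 8 was -0.88, beside 0.0033 over all tested genes. CCND1, CCNB1 and CCNE2 were also past 2-fold, a limit that 1.31% of tested genes passed downwards. In 7 of the 8, the highest siEIF1 library was below the lowest NC library in read counts scaled by library size (CPM), which was so for 18.9% of all tested genes. In bulk RNA, fewer cells in the phase that transcribes a cyclin and less of its RNA per cell cannot be told apart.

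**Figure D2:**
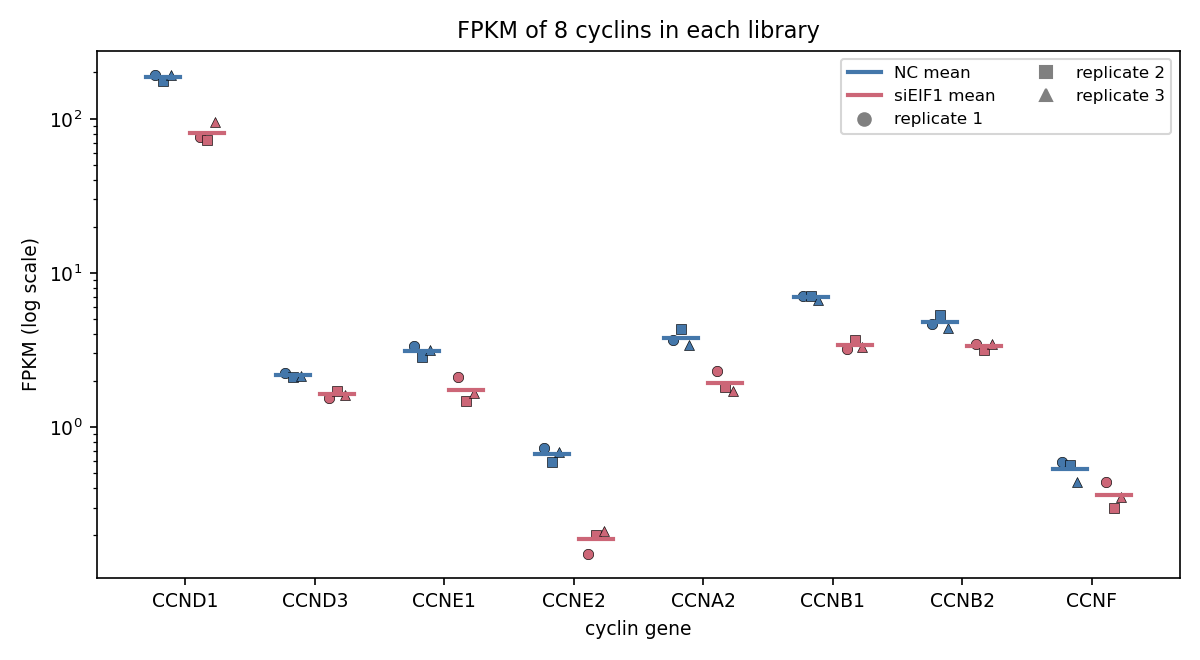
FPKM on a log axis of 8 cyclins in the 3 NC and 3 siEIF1 libraries, with marker shape for the replicate number and a bar for the group mean. CCND2 is left out because 2 of its libraries are listed at 0 FPKM, and CCNF is the cyclin whose groups touch, at 0.44 FPKM.

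CCND1, the cyclin that couples growth factor signals to CDK4 and CDK6, was by far the most abundant of the 9. It stood at 193.44, 175.5 and 192.24 FPKM in the NC libraries and at 75.89, 72.63 and 95.61 FPKM in the siEIF1 libraries. The groups did not overlap, and the third siEIF1 library was the highest of its group. The mean fell from 187.1 ± 10.0 to 81.4 ± 12.4 FPKM (SD, n = 3 each), or to 43.5% of the NC mean. Its log2 fold change was -1.18 ± 0.079 (SE), with an adjusted p of 6.61e-07. Among the 30275 genes with FPKM values, CCND1 ranked 150 by mean level in NC and 343 in siEIF1. Its fall of 105.7 FPKM was the seventh largest of all genes, where EIF1 ranked 2. The gene occupies chromosome 11 from 69641156 to 69654474, forward strand (GRCh38, GENCODE release 44). It shares 1399 bases with LTO1 on the opposite strand, a gene that is not a cyclin and was looked up after the values were seen. LTO1 had a mean of 1822 counts in NC and 1210 in siEIF1 (log2 fold change -0.71 ± 0.060, adjusted p 3.55e-06), beside 30130 and 14350 counts for CCND1. The methods describe strand-specific libraries, but the strand setting of the counting is not given in the sources used here. Reads of the shared stretch could therefore have gone to either gene, and their part was not tested.

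CCND3, the D-type cyclin best known from blood cells, changed least of the tested cyclins. Its values were 2.24, 2.11 and 2.14 FPKM in NC and 1.55, 1.71 and 1.62 FPKM in siEIF1. All siEIF1 libraries were lower, and the mean was 75.2% of that in NC. The log2 fold change was -0.39 ± 0.080 (SE), with an adjusted p of 0.00373. CCND2, the third D-type cyclin, had 2, 3 and 2 counts in NC and 1, 0 and 4 counts in siEIF1. These counts were too few for the filter on low values, and a difference was not detectable from them. Without the filter CCND2 had a log2 fold change of -0.57 ± 1.07 (SE) and an adjusted p of 0.807. A longer protein-coding gene annotated over CCND2 on the same strand shares 31592 bases with it and had means of 600.0 and 635.3 counts. How reads were divided between them is not given in the sources used here, so the few counts of CCND2 need not reflect its level. The pseudogene CCND3P1 had 1 count in all 6 libraries.

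The balance within the D-type group was compared by ratios. The FPKM ratio of CCND1 to CCND3 was 86.4, 83.2 and 89.8 in NC and 49.0, 42.5 and 59.0 in siEIF1. CCND3 thereby went from 1.14% to 1.99% of the summed D-type FPKM, so CCND1 still made up nearly the whole of it. The log2 ratio differed by -0.80 between the groups (pooled SD 0.17) without overlap. The two-sided exact permutation test gave p = 0.1, the smallest value that 3 against 3 libraries allow, and an adjusted p of 0.16 over the 8 ratios that could be formed. The planned ratio of CCND1 to CCND2 could not be formed because CCND2 is listed at 0 FPKM in 2 libraries.

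The E-type cyclins activate CDK2 at the start of S phase, and both fell. CCNE1 stood at 3.36, 2.86 and 3.17 FPKM in NC and at 2.11, 1.47 and 1.66 FPKM in siEIF1. The first siEIF1 library was the highest of its group and still lay below every NC library. The mean of siEIF1 was 55.8% of that of NC, with a log2 fold change of -0.82 ± 0.129 (SE) and an adjusted p of 0.000609. The gene occupies chromosome 19 from 29811991 to 29824312, forward strand.

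CCNE2 showed the largest fall of the 8 tested cyclins on the log2 scale. Its values were 0.73, 0.59 and 0.69 FPKM in NC and 0.15, 0.20 and 0.21 FPKM in siEIF1. These rest on 104, 91 and 104 counts against 25, 33 and 33 counts, so the groups were far apart although the gene is weakly expressed. The mean of siEIF1 was 27.9% of that of NC, and the log2 fold change was -1.82 ± 0.196 (SE) with an adjusted p of 3.03e-05. The 5 tested genes that overlap a cyclin on the genome include INTS8 and NDUFAF6 at CCNE2, with log2 fold changes of 0.08 each (adjusted p 0.476 and 0.411).

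**Figure D3:**
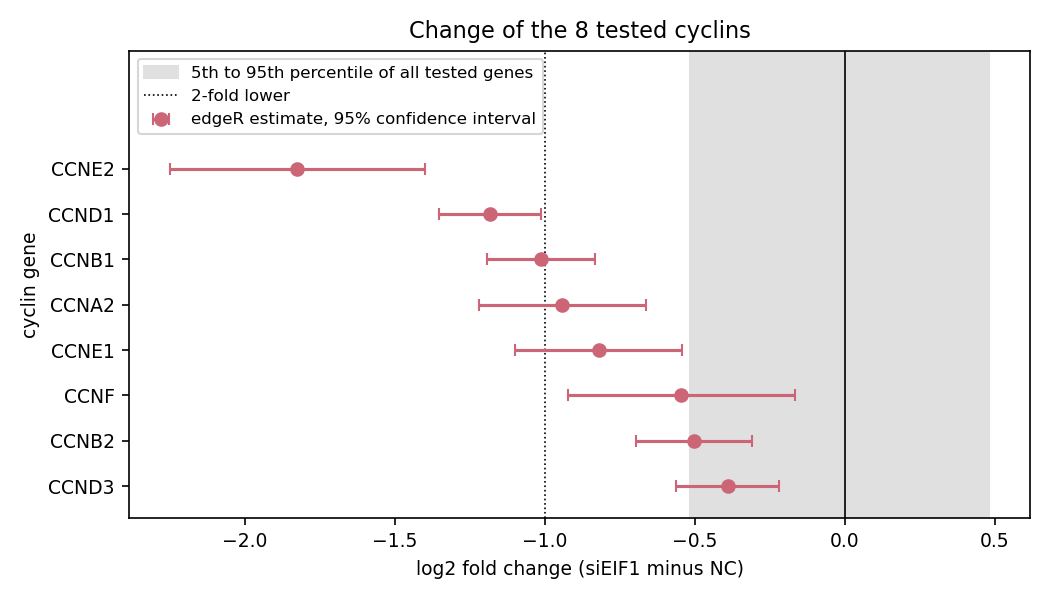
Log2 fold changes (siEIF1 minus NC, horizontal axis) of the 8 tested cyclins with 95% confidence intervals from edgeR, beside the 5th to 95th percentile of all tested genes (grey, -0.514 to 0.481). CCNE2 lies farthest to the left at -1.82, and CCNB2 and CCND3 lie inside the grey band.

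CCNE1 was the main E-type transcript in both groups. The ratio of CCNE1 to CCNE2 was 4.60, 4.85 and 4.59 in NC and 14.1, 7.35 and 7.90 in siEIF1, where the first library stood apart from the other two. The log2 ratio was 0.998 higher in siEIF1 (pooled SD 0.36) without overlap, with an exact permutation p of 0.1 and an adjusted p of 0.16. Without the first siEIF1 library the difference was 0.70. CCNE2 made up 17.6 ± 0.44% (SD, n = 3) of the summed E-type FPKM in NC and 9.95 ± 2.9% in siEIF1.

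Cyclin A2, the product of CCNA2, serves both S phase and the entry into mitosis. CCNA2 stood at 3.65, 4.32 and 3.38 FPKM in NC and at 2.30, 1.81 and 1.71 FPKM in siEIF1. The groups did not overlap, and the mean of siEIF1 was 51.3% of that of NC. The log2 fold change was -0.94 ± 0.129 (SE), with an adjusted p of 0.000216. CCNA2 occupies chromosome 4 from 121816444 to 121823883, reverse strand, and shares 578 bases with EXOSC9 on the other strand, which fell less (log2 fold change -0.32 ± 0.063, adjusted p 0.00305).

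CCNB1, whose product carries CDK1 into mitosis, ranked second of the 9 by mean level in both groups. It stood at 7.07, 7.09 and 6.62 FPKM in NC and at 3.21, 3.66 and 3.29 FPKM in siEIF1. Each siEIF1 library was well below each NC library, and the mean fell to 48.9% of NC. The log2 fold change was -1.01 ± 0.083 (SE), with an adjusted p of 2.9e-06. CCNB1 sat at the 2-fold limit. It fell short of it without the first NC library (-0.995), the second NC library (-0.992), the first siEIF1 library (-0.973) or the third (-0.976), while CCNA2 passed the limit without the third NC library (-1.03) or the first siEIF1 library (-1.08). CCNB1 occupies chromosome 5 from 69167135 to 69178245, forward strand.

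CCNB2, the B-type cyclin found mainly at the Golgi, fell less than CCNB1. Its values were 4.66, 5.36 and 4.39 FPKM in NC and 3.43, 3.18 and 3.44 FPKM in siEIF1. The groups did not overlap, and the mean of siEIF1 was 69.7% of that of NC. The log2 fold change was -0.50 ± 0.090 (SE), with an adjusted p of 0.00156. It occupies chromosome 15 from 59105126 to 59125045, forward strand.

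In NC the FPKM of CCNB1 exceeded that of CCNB2 by ratios of 1.52, 1.32 and 1.51. In siEIF1 the ratios were 0.936, 1.15 and 0.956, so that the B-type cyclins were about level. The log2 ratio differed by -0.52 (pooled SD 0.14) without overlap, with an exact permutation p of 0.1 and an adjusted p of 0.16. CCNA2 and CCNB1 had ratios of 0.516, 0.609 and 0.511 in NC and 0.717, 0.495 and 0.520 in siEIF1. These ranges overlapped, and the log2 ratio differed by 0.07 (pooled SD 0.23, exact permutation p = 0.8), which does not show that both genes changed alike.

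CCNF encodes the substrate receptor of a ubiquitin ligase and gave the weakest evidence of a change. It stood at 0.59, 0.57 and 0.44 FPKM in NC and at 0.44, 0.30 and 0.35 FPKM in siEIF1. The third NC library and the first siEIF1 library met at 0.44 FPKM, so the groups overlapped. The counts behind these values were 122, 126 and 95 in NC and 106, 70 and 79 in siEIF1. The log2 fold change was -0.54 ± 0.176 (SE), with an adjusted p of 0.0436. The adjusted p was 0.161 without the first NC library, 0.132 without the second, 0.166 without the second siEIF1 library and 0.0842 without the third, with log2 fold changes between -0.50 and -0.44. The ratio of CCNF to CCNB1 was 0.0835, 0.0804 and 0.0665 in NC and 0.137, 0.082 and 0.106 in siEIF1, with an exact permutation p of 0.2. CCNF occupies chromosome 16 from 2429394 to 2458854, forward strand.

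By mean FPKM in NC the order was CCND1, CCNB1, CCNB2, CCNA2, CCNE1, CCND3, CCNE2, CCNF and CCND2, and the ranges of neighbours overlapped only for CCNE2 and CCNF. In siEIF1 CCNF came before CCNE2, and the ranges of CCNB1 and CCNB2, of CCNA2 and CCNE1, and of CCNE1 and CCND3 overlapped. CCND1 accounted for 89.4 ± 0.90% (SD, n = 3) of the summed FPKM of the 9 cyclins in NC and 86.4 ± 1.9% in siEIF1. The other 8 summed to 22.0 ± 1.07 FPKM in NC and 12.6 ± 0.51 FPKM in siEIF1.

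The kinases that cyclins bind and the subunits that dock on these kinases were mostly lower as well. CDK1, the mitotic kinase, fell by 1.66 on the log2 scale (adjusted p 3e-07), and CDK2 fell by 0.79 (adjusted p 7.09e-05). CDK4 fell by 0.20 (adjusted p 0.00853), whereas CDK6 had a log2 fold change of 0.05 (adjusted p 0.58). The kinase-docking subunits CKS1B and CKS2 fell by 1.04 and 0.64. In all, 5 of 6 in this list were lower and 0 higher, beside 10.4% lower and 10.2% higher over all tested genes, with a median log2 fold change of -0.71.

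The ratios of cyclins to their kinases moved in both directions. The FPKM ratio of CCNB1 to CDK1 was 1.95, 1.89 and 1.82 in NC and 3.06, 2.90 and 2.89 in siEIF1, so the ratio was higher in every siEIF1 library than in any NC library. The log2 ratio was 0.65 higher in siEIF1 (pooled SD 0.05). For the D-type cyclins the ratio to CDK4 plus CDK6 went the other way, from 2.52, 2.36 and 2.55 in NC to 1.13, 1.12 and 1.48 in siEIF1. That log2 ratio differed by -1.001 (pooled SD 0.16). Both pairs of groups were without overlap, each with an exact permutation p of 0.1 and an adjusted p of 0.16. The ratio of CCNA2 to CDK2 was 0.768 to 1.0 in NC and 0.710 to 0.808 in siEIF1, which overlapped (exact permutation p = 0.4).

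**Figure D4:**
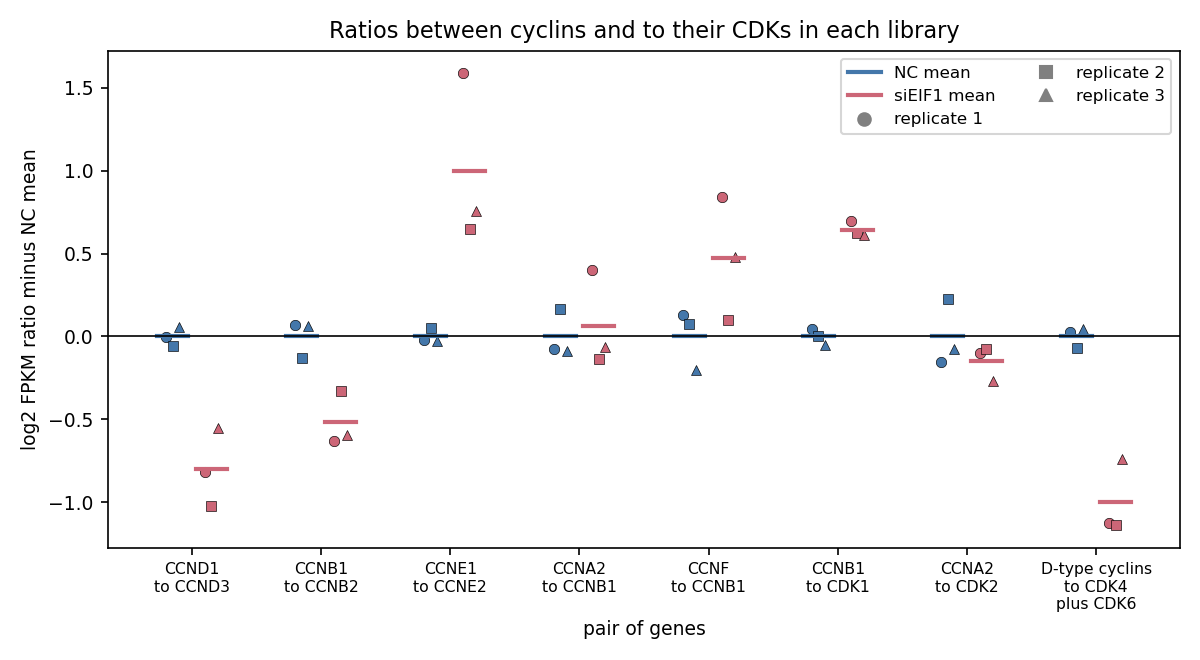
Log2 FPKM ratios of 8 gene pairs in each library, drawn relative to the NC mean, with bars for group means and marker shape for the replicate number. The ratio of CCNB1 to CDK1 is 0.65 higher and that of D-type cyclins to CDK4 plus CDK6 differs by -1.001, while CCNA2 to CCNB1, CCNF to CCNB1 and CCNA2 to CDK2 overlap.

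Of 7 CDK inhibitors, 1 was higher and 1 lower, near the 10.2% and 10.4% of all tested genes. CDKN2B, an inhibitor of CDK4 and CDK6, rose from a mean of 9.47 to 13.9 FPKM (log2 fold change 0.57, adjusted p 0.000209). CDKN2D, of the same family, fell by 0.49 (adjusted p 0.0441). The 5 others, listed after their values were seen, were CDKN1A, CDKN1B, CDKN1C, CDKN2A and CDKN2C, with log2 fold changes from -0.42 to 0.22 and adjusted p from 0.0747 to 0.647. CDKN1A, the p53-responsive inhibitor, was the most abundant at 249 FPKM in NC and 220.7 FPKM in siEIF1.

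Among 7 enzymes that switch cyclin and CDK complexes on or off, 3 were lower and 0 higher, beside 10.4% and 10.2% of all tested genes. CDC25C and CDC25B, phosphatases that activate CDK1, fell by 1.73 and 0.58 (adjusted p 0.000281 and 8.6e-05). PKMYT1, a kinase that inhibits CDK1, fell by 1.23 (adjusted p 1.46e-05).

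Of 13 genes that destroy cyclins, 4 were lower and 0 higher, beside 10.4% and 10.2% of all tested genes. The anaphase-promoting complex destroys cyclins A and B. Its activator CDC20 fell by 1.17 on the log2 scale (adjusted p 0.000155), and its ubiquitin-conjugating enzymes UBE2C and UBE2S fell by 1.58 and 0.65 (adjusted p 7.89e-07 and 2.79e-06). Its inhibitor FBXO5 fell by 0.68 (adjusted p 0.00152). The other activator of the complex, FZR1, had a log2 fold change of 0.01 (adjusted p 0.936) and is named after its value was seen. It and the 8 others that did not pass, which belong to ligases for other cyclins, had log2 fold changes between -0.08 and 0.08. Of 4 tested substrates of cyclin F, 3 were lower, beside 10.4% of all tested genes. CDC6, which loads replicative helicases, fell by 2.07, RRM2, a subunit of ribonucleotide reductase, fell by 1.73, and SLBP, which binds histone mRNA, fell by 0.22 (adjusted p 2.62e-06, 7.82e-07 and 0.0098).

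Of 23 tested regulators of cyclin transcription, 13 were lower and 0 higher, beside 10.4% and 10.2% of all tested genes, with a median log2 fold change of -0.28. E2F1 and E2F2, activators of genes for S phase, fell by 1.84 and 1.99 (adjusted p 5e-07 and 0.00204). E2F2 rests on few reads, with means of 27.33 counts in NC and 7.33 in siEIF1, beside 388.7 and 117 for E2F1. MYBL2 and FOXM1, which act on the promoters of genes for G2 and mitosis through the CHR, fell by 1.66 and 1.12 (adjusted p 1.98e-06 and 3.38e-06). RBL1 and E2F4, which take part in repression of cell cycle genes in quiescent cells, fell by 0.51 and 0.25 (adjusted p 0.00164 and 0.00577). The other 7 that fell had log2 fold changes between -0.67 and -0.17. The 3 NF-Y subunits, which bind CCAAT boxes and are named after their values were seen, had log2 fold changes of -0.08, 0.05 and -0.09 and did not pass the test.

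**Figure D5:**
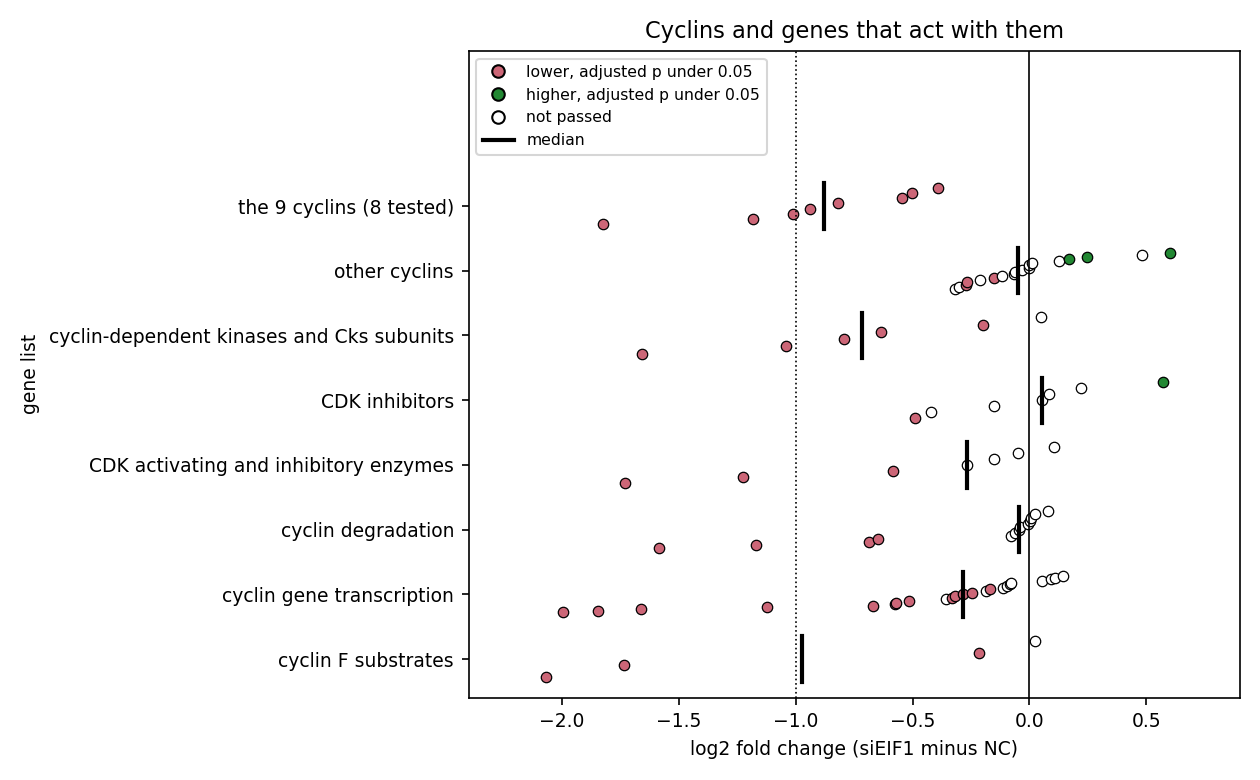
Log2 fold changes (siEIF1 minus NC, horizontal axis) of the tested cyclins and of 7 lists of genes that act with them, with 1 point for each gene, filled where the adjusted p was under 0.05, and a bar for the median. The 8 cyclins have a median of -0.88 and the other cyclins a median of -0.05.

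The 20 other cyclin genes were divided in direction. Apart from CCNA1 and CCNB3, of the A and B types, most of them serve transcription or have less defined roles. CCNA1 had too few reads for a test (means of 7 and 6 counts). CCNB3 had a log2 fold change of 0.48 and did not pass (adjusted p 0.377). Of all 18 tested, 3 were lower, 3 were higher and 12 did not pass, beside 10.4% lower and 10.2% higher over all tested genes. CCNG2, a cyclin linked to arrest, rose by 0.60 on the log2 scale (adjusted p 0.000279), CCNG1, a p53 target, by 0.25 (adjusted p 0.00395) and CCNY by 0.17 (adjusted p 0.0319). CCNL1, CCNK and CCNH, cyclins of splicing and transcription kinases, fell by 0.27, 0.27 and 0.15 (adjusted p 0.0051, 0.0023 and 0.0284). None of the 6 was past 2-fold.

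Genes whose log2 CPM followed a cyclin most closely over the 6 libraries were sought among those with a mean of at least 200 counts. For CCNB1 these were ASF1B, MTMR10 and DCAF12, with Pearson r from 0.997 to 0.998. For CCNE2 they were USP37, MMS22L and EDEM3, with r from 0.996 to 0.997, and for CCND1 they were ACLY, EXOSC6 and HELLS, with r from 0.998 to 0.999. The libraries fall into 2 groups, so r mainly follows the group difference, and 858 to 1102 genes had an r above 0.9 with each of the 3. The log2 fold changes of these 9 genes ran from -1.82 (ASF1B) to -0.12 (DCAF12).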

How the data were processed

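RNA was sequenced from 3 NC and 3 siEIF1 libraries of ARPE-19 cells, which the methods describe as independent replicates prepared in parallel and sequenced in 1 run. The authors trimmed reads with FASTX-Toolkit 0.0.13, aligned them to GRCh38 with HISAT2 and deposited raw counts of uniquely mapped reads per gene. FPKM values were likewise deposited by the authors, rounded to 2 decimals. The methods describe strand-specific libraries, but the counting program, its strand setting and the annotation release are not given in the sources used here. Groups and replicate numbers were taken from the sample titles.

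After filterByExpr, 16749 genes were left for the quasi-likelihood test of edgeR 4.0.16 with TMM factors, run under R 4.3.3 and corrected by Benjamini-Hochberg. A gene was called lower or higher at an adjusted p under 0.05, and past 2-fold under the limits of the study's methods. The standard error comes from the F statistic. Libraries held 26499929 to 31431479 counts, and the error of each gene reflects both its counts and the spread between libraries. FPKM ratios were formed within libraries and compared by two-sided exact permutation tests in scipy 1.17.1. Scripts were tested on simulated counts with 200 changed genes.

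The alternatives were other normalizations and filters, DESeq2 1.42.0, limma 3.58.1 on FPKM, a replicate block, glmTreat and leaving out each library. The members, the gene lists and the alternatives were chosen with earlier results of these data known. Named are the 9 cyclins, EIF1, of the members past the test in each list the 6 with the lowest p, the kinases of the ratios, antisense genes and pseudogenes of the cyclins, and the 3 genes most like CCNB1, CCNE2 and CCND1. Genes outside this rule, chosen after their values were seen, are LTO1 and other genes overlapping a cyclin, the NF-Y subunits, FZR1 and BEST1. Likewise outside it are RPE65, TTR, LRAT, PMEL, TYR, TYRP1, DCT, CCNA1, CCNB3 and the CDK inhibitors that did not pass. Coordinates come from GENCODE release 44, whose gene identifiers match those of the files, and promoter sequences from RefSeq (GRCh38.p14).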

Additional observations from a re-analysis of the deposited data

How the results depend on the processing

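Of 112 alternative values of single cyclins, 106 kept both direction and side of the threshold, and the other 6 were all of CCNF. The 7 other tested cyclins passed under all 14 alternatives each. CCNF also did not pass with limma on log2(FPKM + 1) or log2(FPKM + 0.1) (adjusted p 0.0794 and 0.092). Its adjusted p over all alternatives ran from 0.00875 to 0.166. The count of lower cyclins was 7 or 8 and that of higher cyclins 0 throughout, leaving out each library included. The count past 2-fold was 1 with limma on log2(FPKM + 1), which left CCND1 (-1.2). There CCNB1 had a log2 fold change of -0.85, and CCNE2 had -0.49 because the pseudocount exceeds its level. The count past 2-fold was also 1 with glmTreat, which tests against the limit itself (CCNE2, adjusted p 0.0429). It was 2 to 4 when each library was left out. Members of the pathway lists past the test in either direction numbered 36, and 30 to 33 without a library. The tested members and both directions are given above for each list. Over all tested genes, 10.4% were lower and 10.2% higher in the main fit (1744 and 1702 genes). Without a library these all-gene counts ran from 1124 to 1763 lower and from 1118 to 1709 higher.

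Same-numbered NC and siEIF1 libraries deviated together only weakly, with correlations of 0.149, 0.0946 and 0.128, so the numbers were not taken to pair the libraries, although each library correlated best with its own number. With a replicate block 8 cyclins were lower, 0 higher and 3 past 2-fold, 40 list members passed, and calls over all genes went from 1744 lower and 1702 higher to 2128 and 2149. The ratios moved by less than 1 pooled SD under every alternative run, but most of these runs could not have moved them further. Leaving out 1 of 3 libraries cannot shift a difference by 1 pooled SD, and a replicate block leaves it unchanged. Counts in place of FPKM cancel gene length only for ratios of single genes. With counts, the log2 ratio of D-type cyclins to CDK4 plus CDK6 differed by -1.05 instead of -1.001. The ratio of CCNA2 to CCNB1, which overlapped between groups, changed sign without the first siEIF1 library (-0.10). Low counts limit CCND2, CCNE2 and CCNF, and those of CCND2 may also depend on how reads were divided with the gene annotated over it.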
